A study of Mus musculus with 6 samples.

Results

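Imprinted growth genes were examined in the gastrocnemius, the large calf muscle, of 21-day-old *Hras* G12V mice and wild-type (WT) littermates. The 10 genes were picked by their symbols out of the 23997 listed for each mouse: *Igf2*, *H19*, *Dlk1*, *Meg3*, *Rian*, *Mirg*, *Peg3*, *Plagl1*, *Cdkn1c* and *Grb10*. The rule used symbols and no measured value, but the list was drawn up with earlier results of these data known. All 10 were above 0 in every mouse and passed the filter on low values, a mean of at least 0.5 FPKM (sequenced fragments scaled for transcript length and library size). Polyadenylated RNA was sequenced as 1 library per mouse, from 3 HrasG12V mice (2276, 2278 and 2279) and 3 WT mice (2277, 2280 and 2281). The labels give the genotypes as HrasG12V/+ and Hras+/+. By the methods HrasG12V mice were Caggs-Cre+/HrasG12V/+ and model Costello syndrome, a disorder of overactive Ras signalling with growth failure and weak muscles. By the same source WT mice were Caggs-Cre-/Hras flG12V/+, which differs from their label. On that account they kept the floxed allele without recombination and lacked the Cre transgene, and an effect of Cre itself cannot be told apart from one of the mutation. The CAG promoter drives Cre broadly, so the mutation is not restricted to muscle fibres, and the strain background was mixed (SWR/J, 129S1/SvImJ and C57BL/6J). Sex, litter and batch are not among the labels.

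An imprinted gene is expressed mainly from the copy inherited from 1 parent. Many such genes act on growth before and shortly after birth, and a group of them is known to be shut down together in several organs as postnatal growth slows. Igf2, Dlk1, Peg3 and Plagl1 are known as paternally expressed genes, and H19, Meg3, Rian, Mirg, Cdkn1c and, in most tissues, Grb10 as maternally expressed ones. The comparison asks whether mutant muscle held more of these transcripts than WT muscle at 21 days. With 1 age sampled, the fall after birth was not itself measured, and FPKM add up both parental copies. In whole muscle, fewer cells of a type and less RNA per cell cannot be told apart.

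At 21 days, levels of the 10 genes lay on both sides of WT. By limma, which compared log2(FPKM + 0.1) across 13359 genes, 4 members had a higher and 6 a lower mean in HrasG12V muscle, with a median log2 fold change of -0.14 against -0.03 for all genes tested. Only *Mirg* passed an unadjusted p of 0.05, 1 of 10 members (10%) against a background of 10.2% of all genes (1358 of 13359), or 5.18% when only higher genes are counted. No member had an adjusted p below 0.05, against 0.0599% of all genes (8 of 13359), after Benjamini-Hochberg adjustment over all genes tested. No member was higher in every HrasG12V mouse than in every WT mouse, a pattern shown by 8.11% of all genes, and 1 member, *Grb10*, was lower in every HrasG12V mouse, a pattern shown by 10.4%. Without mouse 2276 the members past the unadjusted limit were 3 (*H19*, *Cdkn1c* and *Grb10*, all lower) where 29.8% of all genes passed, without mouse 2278 they were 2 (*Igf2* and *Mirg*, both higher) where 9.69% passed, and without mouse 2277, 2279 or 2281 there were 0. The spread between mice was larger among HrasG12V than among WT mice for 7 members (70.0%) and for 86.8% of all genes tested.

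**Figure D1:**
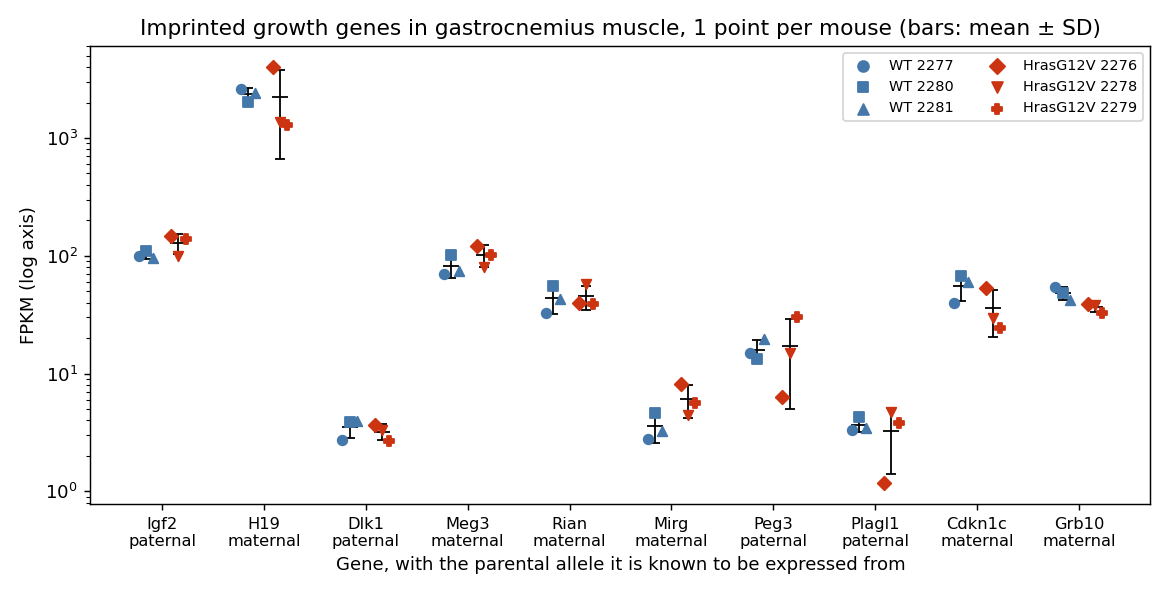
FPKM on a log axis for each of the 10 imprinted genes in 3 WT (blue) and 3 HrasG12V (red) mice, 1 symbol per mouse, with black bars for the mean ± SD. The genotypes overlap for every gene but *Grb10*, whose 3 HrasG12V mice lie at 32.7 to 38.7 below the WT range of 41.7 to 54.0.

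Several of these transcripts are known as hosts of microRNAs, short RNAs that repress mRNAs chiefly through their seed, bases 2 to 8. In GENCODE vM21 on GRCm38, *Mirg* spans 14 microRNA hairpins with 26 mature microRNAs, *Rian* 3 hairpins, *Meg3* 2, and *H19* and *Igf2* 1 each. The mature sequences below, from RefSeq (GRCm38.p6), are shown for the hairpins inside *H19* and *Igf2* and for 4 hairpins inside *Mirg*, the member with the smallest p. The seed is in capitals.
miR-675-5p (in H19): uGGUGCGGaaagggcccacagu
miR-675-3p (in H19): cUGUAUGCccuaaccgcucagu
miR-483-5p (in Igf2): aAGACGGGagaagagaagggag
miR-483-3p (in Igf2): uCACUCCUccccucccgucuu
miR-134-5p (in Mirg): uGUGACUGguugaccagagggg
miR-154-5p (in Mirg): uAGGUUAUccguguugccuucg
miR-453 (in Mirg): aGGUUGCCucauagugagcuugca
miR-496a-5p (in Mirg): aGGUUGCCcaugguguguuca
The last pair share a seed, the single one shared among the 26 mature microRNAs of *Mirg*, which hold 25 distinct seeds. The host transcripts were measured here and the mature microRNAs were not. All 21 hairpins have an entry of their own in the files, and 14 are listed at 0 in all 6 mice. The highest value of any was 70.5 FPKM, for Mir3072 in mouse 2279, an entry listed at 0 in WT mice 2277 and 2280. Such entries mix 0 with high values among mice of 1 genotype and are not read as levels.

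*Igf2* encodes the insulin-like growth factor that drives fetal growth, and *H19* is the long noncoding RNA beside it, under a shared control region. *Igf2* lies on chromosome 7 (GRCm38 chr7:142650766-142666816, minus strand), in 4 exons of its longest transcript, and *H19* lies 72.6 kb away (chr7:142575529-142578143, minus strand, 5 exons). *Igf2* reached 99.4, 109 and 94.9 FPKM in WT (2277, 2280, 2281) and 147, 100.3 and 140.1 FPKM in HrasG12V muscle (2276, 2278, 2279), the order of mice used for all genes. Mice 2276 and 2279 were above every WT mouse, and mouse 2278 lay within the WT range. The log2 fold change was 0.33 (SE 0.23, limma adjusted p = 0.676, n = 3 per genotype), with a 95% interval of 0.857- to 1.85-fold. Without mouse 2278 it was 0.50 (unadjusted p below 0.05, limma adjusted p = 0.504). On the opposite strand the gene overlaps *Igf2os*, and on its own strand it overlaps the *Gm49394* model.

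*H19* was by far the most abundant member, at 2597, 2034 and 2427 FPKM in the WT mice, 99.9% of genes tested having an equal or lower mean. In HrasG12V mice it was at 4026, 1354 and 1291 FPKM. The WT range of 2034 to 2597 was thus bracketed by the mutants, with mouse 2276 above it and mice 2278 and 2279 below it. The log2 fold change over all mice was -0.29 (SE 0.54, limma adjusted p = 0.898), and its 95% interval ran from 0.334- to 2.01-fold. The result turned on mouse 2276. Without it the log2 fold change was -0.82 (limma adjusted p = 0.0435), in a comparison that put 29.8% of all genes past the unadjusted and 9.66% past the adjusted limit. Without mouse 2279 it was -0.0033 (limma adjusted p = 1), and with a lymphocyte covariate, chosen after the data were seen, it turned to 0.78 (limma adjusted p = 0.0367), in a fit that put 26.0% of all genes past the adjusted limit. These were the extremes of the adjusted p over the alternatives tried.

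The ratio of *H19* to *Igf2* within a library does not depend on how libraries were scaled, though it does carry the trend over transcript length of library 2276 described further on. It was 26.1, 18.6 and 25.6 in WT mice and 27.5, 13.5 and 9.21 in HrasG12V mice. Mouse 2276 was above every WT mouse and the others were below. The mean log2 ratio differed by -0.62 (exact two-sided permutation p = 0.40, adjusted p = 0.533 over 4 ratios), where 3 against 3 mice allow no p below 0.10. With each library's trend over length removed, an alternative chosen after the data were seen, the log2 ratio of mouse 2276 went from 4.78 to 4.39, within a WT range of 4.31 to 4.79, and the difference was -0.81 (exact permutation p = 0.20, adjusted p = 0.40). *Nctc1*, a noncoding RNA gene near *H19*, was at 75.4, 65.4 and 77.9 FPKM in WT and 81.9, 45.8 and 61.9 FPKM in HrasG12V mice. Among 10 tested genes within 250 kb of *H19* and *Igf2*, these included, 0 had an unadjusted limma p below 0.05, against 10.2% of all genes. *Lsp1*, *Prr33* and *Tnnt3* among them were listed at 0 in mouse 2276 alone. Their SEs were 2.12, 2.51 and 4.23, so they could hardly be called.

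*Dlk1*, *Meg3*, *Rian* and *Mirg* lie in 1 cluster on chromosome 12, which spans 828.3 kb from *Dlk1* to *Dio3*. *Dlk1* encodes a membrane protein of the Delta-Notch family found in preadipocytes and growing muscle, and the other 3 are long noncoding RNAs read from the maternal copy. *Dlk1* (GRCm38 chr12:109452823-109463336, plus strand) was the least abundant member, at 2.73, 3.87 and 3.997 FPKM in WT and 3.65, 3.34 and 2.68 FPKM in HrasG12V mice. The genotypes overlapped almost fully, and only mouse 2279 lay below the WT range. The log2 fold change was -0.12 (SE 0.21, limma adjusted p = 0.891), with a 95% interval of 0.648- to 1.31-fold.

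*Meg3* (GRCm38 chr12:109541001-109571726, plus strand) was at 69.8, 101 and 73.9 FPKM in WT and 122, 79.8 and 101 FPKM in HrasG12V mice. Mouse 2276 was above the WT range and mouse 2279 level with its top (101.1 FPKM in both 2279 and WT mouse 2280), and the log2 fold change was 0.31 (SE 0.26, limma adjusted p = 0.731). *Rian* (chr12:109603940-109661716, plus strand), known for the many small nucleolar RNAs in its introns, was at 32.5, 55.7 and 43.4 FPKM in WT and 39.7, 57.2 and 38.9 FPKM in HrasG12V mice. These ranges were nearly the same, with a log2 fold change of 0.06 (SE 0.27, limma adjusted p = 0.968).

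*Mirg*, the microRNA host at the far end of the noncoding run (GRCm38 chr12:109729764-109749460, plus strand, 12 exons), was at 2.81, 4.64 and 3.23 FPKM in WT mice. It was at 8.19, 4.46 and 5.62 FPKM in HrasG12V mice. Mice 2276 and 2279 were above every WT mouse and mouse 2278 was just under the highest WT value. The log2 fold change was 0.75 (SE 0.28, limma adjusted p = 0.481), or 1.05- to 2.68-fold at 95%. Its unadjusted p passed 0.05 in 11 of the 18 alternatives tried, its direction was the same in all 18, and its adjusted p ranged from 0.0422, with the lymphocyte covariate that put 26.0% of all genes past that limit, to 0.970. Leaving out mouse 2276, 2279, 2277 or 2281 each took the unadjusted p above 0.05, with log2 fold changes of 0.51, 0.78, 0.59 and 0.69, as did quantile normalization (0.67), array weights (0.53) and a fit without moderation (0.75).

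Within the cluster the ratio of *Mirg* to *Meg3* in the deposited values was 0.0402, 0.0459 and 0.0437 in WT and 0.0670, 0.0559 and 0.0556 in HrasG12V mice, without overlap. The mean log2 ratio was 0.44 higher in HrasG12V muscle (exact two-sided permutation p = 0.10, the smallest that 3 against 3 mice can give, adjusted p = 0.40 over 4 ratios). With the trend over length removed the genotypes overlapped, since mouse 2276 was at a log2 ratio of -4.43 in a WT range of -4.44 to -4.31, and the difference was 0.19 (exact permutation p = 0.30, adjusted p = 0.40). Mice 2278 and 2279 stayed above WT, at -4.09 and -4.03. That correction took the longest annotated *Meg3* transcript, 14548 bases, while the gene models behind the FPKM are not known. In mouse 2276 *Meg3* was 0.60 higher than WT, where genes over 6000 bases had a median of -0.55. *Meg3* to *Dlk1*, the ratio of a maternal to a paternal transcript, was 25.6, 26.1 and 18.5 in WT and 33.5, 23.9 and 37.7 in HrasG12V mice, which overlapped (log2 difference 0.43, exact permutation p = 0.30, adjusted p = 0.533). *Rian* to *Meg3* was 0.466, 0.551 and 0.587 in WT and 0.325, 0.718 and 0.385 in HrasG12V mice (log2 difference -0.25, exact permutation p = 0.60, adjusted p = 0.60). Here the HrasG12V mice lay on both sides of the WT range. Of 74 symbols in the cluster, 52 were at 0 in every mouse and 18 were tested. Those with an unadjusted limma p below 0.05 numbered 5, where 10.2% of all genes passed. Of these 5, only *Mirg* is not a short RNA entry, and the entries are not read as levels.

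**Figure D2:**
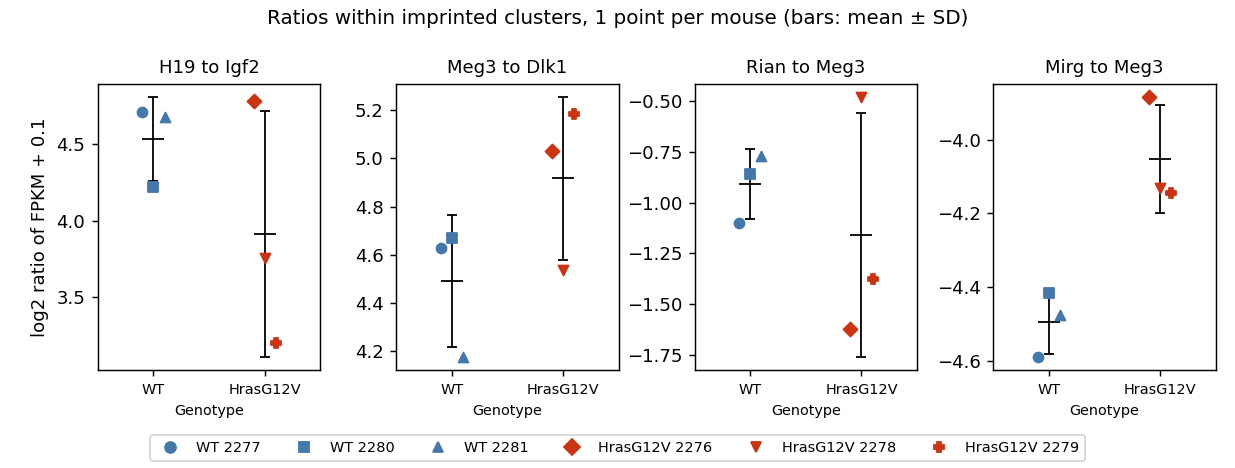
Log2 ratio of FPKM + 0.1 for 4 pairs of imprinted transcripts, with WT mice in blue, HrasG12V mice in red, 1 symbol per mouse and black bars for the mean ± SD; each panel has its own vertical scale. The *Mirg* to *Meg3* ratio is the one in which the genotypes do not overlap. That absence of overlap is lost once each library's trend over the longest annotated transcript is removed, a trend that *Meg3* did not follow in mouse 2276. For *H19* to *Igf2*, mouse 2276 lies just above the WT mice.

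*Peg3* and *Plagl1* encode zinc finger proteins, and Plagl1 is known as a regulator of other imprinted genes. *Peg3* (GRCm38 chr7:6703892-6730431, minus strand) was at 14.9, 13.4 and 19.6 FPKM in WT and 6.35, 14.8 and 30.1 FPKM in HrasG12V mice. Mouse 2276 lay under and mouse 2279 over the whole WT range, which gave a log2 fold change of -0.15 (SE 0.53, limma adjusted p = 0.956). *Zim1*, its imprinted neighbour, ordered the mutant mice in the same way, at 0.976, 4.58 and 10.1 FPKM against 4.99, 4.52 and 5.22 FPKM in WT. *Plagl1* (chr10:13060504-13131694, plus strand) was at 3.32, 4.28 and 3.48 FPKM in WT and 1.17, 4.69 and 3.84 FPKM in HrasG12V mice. Mouse 2276 alone was low, and the log2 fold change was -0.39 (SE 0.49, limma adjusted p = 0.842). Without mouse 2276 both differences turned to positive, at 0.42 for *Peg3* and 0.20 for *Plagl1* (limma adjusted p = 0.465 and 0.460). Over the alternatives that kept all mice, the differences reached as low as -1.28 for *Peg3* and -1.56 for *Plagl1*.

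*Cdkn1c* and *Grb10* encode brakes on growth, the first an inhibitor of cyclin-dependent kinases (p57Kip2) and the second an adaptor that dampens signalling by the insulin and IGF1 receptors. *Cdkn1c* (GRCm38 chr7:143458339-143461050, minus strand) was at 39.9, 67.8 and 60.1 FPKM in WT and 53.7, 29.8 and 24.6 FPKM in HrasG12V mice. Mice 2278 and 2279 lay below every WT mouse and mouse 2276 within the WT range. The log2 fold change of -0.68 (SE 0.35, limma adjusted p = 0.567) was the most negative of the 10. Without mouse 2276 it was -1.01 (unadjusted p below 0.05, limma adjusted p = 0.0744), while with the lymphocyte covariate it was -0.02 (limma adjusted p = 0.974). Over the alternatives its adjusted p ran from 0.0744 to 0.984.

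*Grb10* (GRCm38 chr11:11930508-12038683, minus strand, 17 exons) was at 54.0, 48.8 and 41.7 FPKM in WT and 38.7, 38.0 and 32.7 FPKM in HrasG12V mice. Its mutant mice lay close together and all 3 were below all WT mice, by a log2 fold change of -0.40 (SE 0.19, limma adjusted p = 0.537). The 95% interval reached from -0.84 to 0.05. Its direction was the same under all 18 alternatives, 4 of which took the unadjusted p below 0.05, and the adjusted p ranged from 0.130 to 1.

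**Figure D3:**
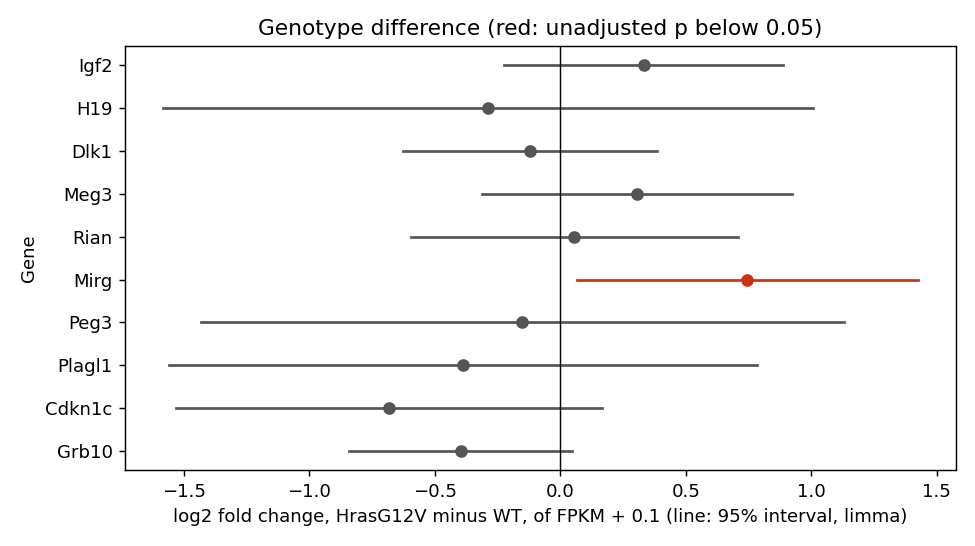
Log2 fold change (HrasG12V minus WT) of FPKM + 0.1 for the 10 imprinted genes, with 95% intervals from limma, 3 mice per genotype; red marks an unadjusted p below 0.05. The intervals cross 0 for every gene but *Mirg*, whose interval runs from 0.07 to 1.42, and are widest for *H19*, *Peg3* and *Plagl1*.

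The mutant mice did not vary alike. Mouse 2276 had the highest value of the 6 mice for 4 members (*Igf2*, *H19*, *Meg3* and *Mirg*) and the lowest for 2 (*Peg3* and *Plagl1*). Mouse 2279 had the lowest value for *H19*, *Dlk1*, *Cdkn1c* and *Grb10* and the highest for *Peg3*. Over all genes tested, mouse 2276 was highest for 35.5% and lowest for 29.2%, the most of any mouse on both counts. All 3 mutant mice lay above the mean of the log2 WT values for 1 member, *Mirg*, and below it for 2, *Cdkn1c* and *Grb10*, against 14.6% and 18.2% of all genes tested.

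Library 2276 also differed from WT by transcript length. Its median difference from the WT mean, in log2(FPKM + 0.1), was 0.72 for genes whose longest transcript has up to 1500 bases and -0.55 for those over 6000 bases. In mice 2278 and 2279 the same medians lay between -0.13 and 0.01. *H19* has 2286 and *Cdkn1c* 1901 bases, in a length class whose median was 0.38 higher in mouse 2276, where *H19* was 0.78 higher and *Cdkn1c* 0.02 lower than WT. *Peg3*, with 8694 bases, was 1.30 lower there, beyond the median of its class, while *Meg3*, with 14548 bases, was 0.60 higher. With each library's trend over length removed, an alternative chosen after the data were seen, *Mirg* kept a log2 fold change of 0.75 and *Cdkn1c* was at -0.84, both with an unadjusted p below 0.05, and *Peg3* was at 0.04.

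**Figure D4:**
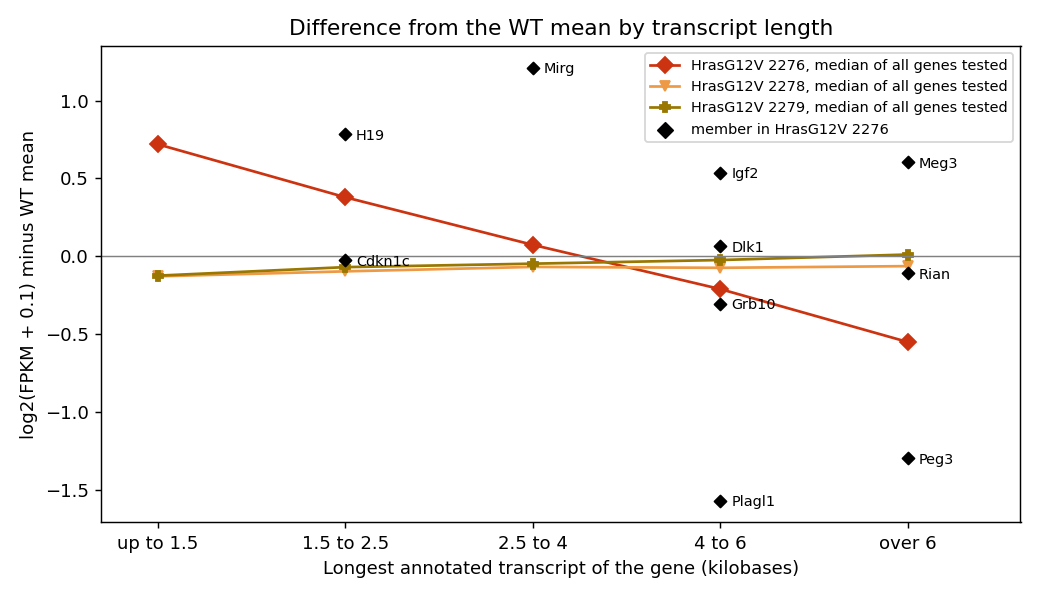
Difference of log2(FPKM + 0.1) from the WT mean against the length class of the longest annotated transcript, in kilobases; lines are medians over all genes tested in each HrasG12V mouse and black diamonds are the 10 imprinted genes in mouse 2276. The line of mouse 2276 falls from 0.72 to -0.55, while those of 2278 and 2279 stay near 0, and *Plagl1*, *Meg3*, *Mirg*, *Igf2* and *Peg3* lie farthest from it.

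Markers of other cells differed between the mice. Counts of them past an unadjusted limma p of 0.05 stand against 5.18% of all genes for higher and 4.99% for lower. B cell genes summed to 0.710 to 1.23 FPKM in WT, 1.51 in mouse 2276 and 89.8 and 71.5 in mice 2278 and 2279, with 4 of 8 higher at an unadjusted p below 0.05. T cell genes summed to 2.94 to 3.39 FPKM in WT, 2.18 in mouse 2276 and 34.4 and 45.2 in the other mutants, with 4 of 7 higher. All 8 B cell genes and the 4 called T cell genes had WT means below the filter of 0.5 FPKM. They passed it only through HrasG12V mice, so their counts cannot be set against the share of all genes. Y linked genes summed to 0.170 and 0.0922 FPKM in mice 2277 and 2276, 1 of each genotype, and to 70.7 to 80.0 in the other 4. Mouse 2276 was thus the only HrasG12V mouse with almost no Y linked expression, as in females. Mice 2278 and 2279 are also those in which *H19* and *Cdkn1c* were low. Tenocyte genes summed to 299.9 to 626 FPKM in WT and 106 to 225 in HrasG12V mice (7 of 8 lower), while fibro-adipogenic progenitor genes, a fibroblast class, summed to 950.0 to 1044 and 793 to 1155 with 0 of 12 past that p. Endothelial genes summed to 264 to 317 FPKM in WT and 226 to 257 in HrasG12V mice (3 of 10 lower, with 8 means lower and 2 higher). Pericyte and smooth muscle genes summed to 410.3 to 465 and 208 to 329 (2 of 8 lower). Sums of both, like those of tenocyte genes, did not overlap. *Grb10*, *Igf2r* and *Slc38a4* were also lower without overlap, a pattern shown by 10.4% of all genes. Sums of the other lists overlapped: Schwann cell genes 143 to 389.8 in WT and 239.7 to 648 in HrasG12V mice (2 of 9 higher, with all 9 means higher and a median log2 fold change of 0.90), adipocyte genes 149 to 216 and 148 to 344 (2 of 8 higher and 1, *Plin4*, lower, with 7 means higher and a median of 1.27), macrophage genes 55.4 to 67.2 and 62.4 to 113 (1 of 7 higher), and satellite cell genes 92.8 to 96.7 and 84.8 to 115 (2 of 10 higher). The part of cell makeup in the values of the imprinted genes was not tested. Of 12 muscle fibre markers, 6 were above 0 in all mice, among them *Mylpf* at 10760 to 36114 FPKM. *Acta1*, *Myh4* and *Atp2a1* were listed at 0 in every mouse and *Ckm*, *Myh1* and *Tnnt3* in some, so a value of 0 is not read here as absence of the transcript.

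Other imprinted genes, listed from general knowledge, were called about as often as genes in general. Of 53 found, 18 fell below the filter of 0.5 FPKM and were not tested. Of the 35 tested, 13 had a higher and 22 a lower mean in HrasG12V muscle, with a median log2 fold change of -0.08. An unadjusted limma p below 0.05 was found for 3 (8.57%), against 10.2% of all genes. *Slc38a4*, a paternally expressed amino acid transporter, was at 64.9, 87.0 and 90.0 FPKM in WT and 39.3, 45.8 and 40.8 FPKM in HrasG12V mice. Its log2 fold change was -0.93 (unadjusted p below 0.05, SE 0.21, limma adjusted p = 0.349), with every mutant mouse below every WT mouse. *Asb4*, a maternally expressed ubiquitin ligase subunit, was at 5.99, 6.54 and 7.67 FPKM against 4.63, 3.26 and 5.11 FPKM, a log2 fold change of -0.64 (SE 0.21, limma adjusted p = 0.439). *Tspan32*, a tetraspanin of blood cells, was at 0.259, 3.37 and 4.08 FPKM in HrasG12V mice and at most 0.207 in WT (log2 fold change 2.85, SE 0.98, limma adjusted p = 0.454), high in the same mice as the B and T cell genes. It passed the filter only through the HrasG12V mice (mean 2.57, against 0.149 in WT), so its place in the count of 3 follows in part from its own rise. Only *Slc38a4* kept its unadjusted call whichever mouse was left out, while *Asb4* lost it without 2280 or 2281 and *Tspan32* without 2277, 2278, 2279 or 2280. The count of 3 became 12 without mouse 2276, 7 without 2279 and 1 without 2280, where 29.8%, 11.5% and 5.31% of all genes passed.

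The partners of Igf2 in the IGF pathway gave 1 unadjusted call among 16 tested genes (6.25%, against 10.2% of all genes), with 6 higher, 10 lower and a median log2 fold change of -0.18. *Grb14*, an adaptor of the same family as Grb10, was at 10.3, 8.91 and 7.49 FPKM in WT and 5.52, 4.24 and 1.78 FPKM in HrasG12V mice (log2 fold change -1.32, SE 0.40, limma adjusted p = 0.432), without overlap, and it lost the unadjusted call without mouse 2277 or 2280. *Igf2r*, the maternally expressed receptor that clears IGF2, was at 26.3, 24.2 and 24.4 FPKM in WT and 17.5, 18.6 and 21.98 FPKM in HrasG12V mice. Those groups did not overlap either, at a log2 fold change of -0.37 (SE 0.16, limma adjusted p = 0.508). With *Irs1*, 3 of the 16 (18.8%) were lower without overlap, against 10.4% of all genes. *Igf2bp3* was higher without overlap, 1 of 16 (6.25%, against 8.11%), and passed the filter only through the HrasG12V mice. *Igf1*, the postnatal growth factor of the family, was at 12.9, 16.9 and 16.9 FPKM in WT and at 10.5, 26.6 and 9.23 FPKM in HrasG12V mice, on both sides of WT (limma adjusted p = 0.926).

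Genes that are known to decline in many tissues as growth slows were compared in the same way. The lists overlap in part. *Mest*, *Nnat*, *Ndn* and *Peg10* are also among the other imprinted genes, as is *Igf2r* of the IGF list. *Igf2bp1*, *Igf2bp2* and *Igf2bp3* are also in the IGF list. Of 16 tested, 10 were higher and 6 lower in HrasG12V muscle, with a median log2 fold change of 0.12, and 1 (6.25%, against 10.2% of all genes) passed an unadjusted p of 0.05. That was *Ezh2*, the methyltransferase of Polycomb complex PRC2, at 1.83, 2.34 and 2.505 FPKM in WT and 2.93, 4.08 and 3.87 FPKM in HrasG12V mice (log2 fold change 0.68, SE 0.20, limma adjusted p = 0.423). That call was lost without mouse 2277 or 2278, and the count of 1 ranged from 0 to 5 over single mice left out (5 without 2276, 3 without 2278 or 2279, 0 without 2277), where 29.8%, 9.69%, 11.5% and 4.75% of all genes passed. *Top2a*, a gene of dividing cells, was at 0.223, 0.487 and 0.192 FPKM in WT and 0.265, 3.59 and 1.18 FPKM in HrasG12V mice, high in 2278 and 2279 and not in 2276. Among 10 embryonic and perinatal muscle genes, 6 were higher and 4 lower, and 2 passed an unadjusted p of 0.05 (20%, against 10.2% of all genes). *Ncam1*, an adhesion molecule of young and denervated fibres, was at 4.45, 5.70 and 4.17 FPKM in WT and 9.35, 7.86 and 7.39 FPKM in HrasG12V mice (log2 fold change 0.77, SE 0.18, limma adjusted p = 0.355). *Myl4*, an embryonic and atrial myosin light chain, was at 4.15, 5.22 and 5.27 FPKM in WT and 13.4, 7.58 and 7.89 FPKM in HrasG12V mice (log2 fold change 0.92, SE 0.25, limma adjusted p = 0.390). Every mutant mouse was above every WT mouse for *Ncam1* and *Myl4*, and for 3 of the 16 decline genes (18.8%), *Ezh2*, *Sox4* and *Igf2bp3*, against 8.11% of all genes tested. *Sox4*, a transcription factor of progenitor cells, was at 3.20, 3.53 and 3.37 FPKM in WT and 4.75, 4.17 and 3.96 FPKM in HrasG12V mice (log2 fold change 0.34, SE 0.14, limma adjusted p = 0.495). *Igf2bp3*, a fetal RNA-binding protein, was at 0.358, 0.401 and 0.492 FPKM in WT and 0.520, 0.608 and 0.729 FPKM in HrasG12V mice (log2 fold change 0.47, SE 0.38, limma adjusted p = 0.721). It passed the filter of 0.5 FPKM only through the HrasG12V mice (mean 0.619, against 0.417 in WT), so it adds nothing to that count of 3. *Top2a* and *Mki67*, both among the 10 higher decline genes, passed it in the same way (WT means 0.301 and 0.217).

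The closest patterns to 3 members over the 6 mice came from genes outside the imprinted clusters. Closeness was the root mean square difference of log2 values after each gene's own mean was subtracted. For *Igf2* the nearest genes were *1110038B12Rik* (0.0425), *Xpa* (0.0486) and *E4f1* (0.0622), and its nearest member was *Meg3* (0.131), with 96 genes as near or nearer. *H19* was nearest to *Ppif* (0.0648), *Cisd1* (0.0681) and *Cmc2* (0.0685), all known to encode mitochondrial proteins, and its nearest member *Cdkn1c* stood at 0.437, with 3246 genes as near or nearer. *Dlk1* was nearest to *Zfp423* (0.0650), *Tmem198b* (0.0726) and *Vstm4* (0.0731), and its nearest member *Rian* stood at 0.240, with 1595 as near or nearer.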

How the data were processed

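RNA from gastrocnemius muscle of 6 mice was made into stranded mRNA libraries, 1 per mouse, and sequenced as single-end reads. The authors deposited FPKM, 1 value per gene symbol and mouse, made with TopHat, Cufflinks and Cuffnorm, and the submitters' processing notes name GRCm38 and mm10. For tool versions and annotation, none was given in the sources used here. Since Cuffnorm makes libraries comparable by its own scaling, total FPKM (413020 to 814013) are not depths. A search for steps of single reads among low values found none: the fullest interval, 2% wide, held 1.11% to 6.69% of low genes, so no reads were recovered, depth per value is unknown, and precision is known only from the spread between mice, which the labels do not place in litters.

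Groups came from the sample labels. Genes with a mean of at least 0.5 FPKM (13359) were fitted as log2(FPKM + 0.1) with limma 3.58.1 in R 4.3.3, with empirical Bayes moderation and a trend over abundance, no covariate, two-sided tests and Benjamini-Hochberg adjustment over all of them. The added 0.1 understates fold changes of genes at low FPKM. Ratios were compared with exact permutation tests over mice. The comparison was also run on simulated data, and the outcome is not reported here. Gene positions and lengths came from GENCODE vM21, in which 23639 symbols were found, 945 by a synonym, and 99.3% of genes tested had a length. RefSeq gave the microRNA sequences.

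The members and gene lists were chosen with earlier results of these data known. Named genes are all members, genes of the other lists with an unadjusted p below 0.05, and the 3 genes nearest to *Igf2*, *H19* and *Dlk1*. Cell type lists are given as sums and counts. *Igf2r*, *Igf1*, *Irs1*, *Sox4*, *Igf2bp3*, *Zim1*, *Top2a*, *Mki67*, *Nctc1*, *Lsp1*, *Prr33*, *Mir3072*, *Mylpf* and the muscle genes at 0 were added with their values in view. Genes that stand in more than 1 list were named for that reason. Alternatives were other pseudocounts (1 and 0.01), filters, scalings, moderation, array weights, Y linked expression as a covariate, and each mouse left out in turn. Plots were drawn with matplotlib 3.10.9.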

Additional observations from a re-analysis of the deposited data

How the results depend on the processing

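No paired analysis was possible because the mouse numbers in the labels all differ and the genotypes share none. Members with an unadjusted limma p below 0.05 (1 as reported) numbered 2 without a filter, with equal total FPKM and with the trend over length removed, 3 with array weights and 4 with a lymphocyte covariate, and 0 to 3 when 1 mouse was left out. Of all genes, 22.8% passed with array weights, 41.0% with the lymphocyte covariate and 29.8% without mouse 2276, against 10.2% as reported. The count stayed at 1 with quantile normalization and without moderation, but the gene was *Cdkn1c* and *Grb10* respectively, in place of *Mirg*. Members with an adjusted p below 0.05 (0 as reported) numbered 3 with the lymphocyte covariate (*H19*, *Mirg* and *Plagl1*) and 0 to 1 when 1 mouse was left out. The lymphocyte covariate and the length correction were chosen after the data were seen. That covariate separates mice 2278 and 2279 from the other 4, so the remaining genotype difference rests mainly on mouse 2276, and 26.0% of all genes had an adjusted p below 0.05 with it. The other imprinted genes past the unadjusted p (3 as reported) numbered 5 without a filter, 6 with array weights, 14 with the lymphocyte covariate and 1 to 12 when 1 mouse was left out, the most without mouse 2276. Genes of the list of postnatal decline (1 as reported) numbered 0 with equal total FPKM, 2 with quantile normalization and with the Y linked covariate, 3 without moderation, 4 with array weights and with the lymphocyte covariate, and 0 to 5 when 1 mouse was left out.

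Log2 fold changes that turned their direction were those of *Peg3* (0.32 with array weights, 0.043 with the length trend removed, 0.0074 without mouse 2281, and -0.69 to 0.42 over single mice left out), *Plagl1* (0.13 with array weights, -0.75 to 0.20 over single mice left out, highest without mouse 2276), *H19* (0.78 with the lymphocyte covariate), *Dlk1* (0.073 with that covariate, -0.29 to 0.0031 over single mice left out), *Rian* (-0.10 with that covariate, -0.12 without mouse 2278, -0.14 to 0.25 over single mice left out) and the B cell gene *Cd79a* (-0.20 with that covariate). *Igf2*, *Meg3*, *Mirg*, *Cdkn1c* and *Grb10* kept their direction in all 18 alternatives, though *Cdkn1c* came to -0.019 with the lymphocyte covariate. Apart from the stated construction, the cause of these shifts was not tested.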
